A study of Mus musculus with 32 samples.

Results

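The genes described here encode the histones, the proteins that package DNA into nucleosomes. They were taken as the protein-coding genes whose symbol in GENCODE mouse release M21 starts with Hist1h, Hist2h, Hist3h, Hist4h, H2af or H3f3, or is H1f0 or H1fx, and which had at least 1 count in at least 4 of 32 libraries. This gave 60 genes out of 80 with such a symbol, in a table of 54146 gene identifiers. Of the 60, 50 belong to the clustered histone genes (Hist1 to Hist4) and 10 encode replacement variants (H2af, H3f3, H1f0 and H1fx). Of the clustered genes 41 lie on chromosome 13, 6 on 3, 2 on 11 and 1 on 6, while the replacement genes are spread over 8 chromosomes. The libraries came from mouse brain, 16 from hippocampus and 16 from striatum, and in each region 4 groups of 4 libraries were compared. The HDACi CFC and HDACi context mice were injected intraperitoneally with 30 mg/kg of CI-994, which blocks class I histone deacetylases, the enzymes that take acetyl groups off histones. The vehicle CFC and vehicle context mice received the same solvent (dimethyl sulfoxide, Kolliphor and saline) without CI-994. After 1 hour, the CFC mice went through contextual fear conditioning, with 2 foot shocks of 0.2 mA in a chamber, and the context mice spent the same time there without shocks. A single hemisphere of the region was taken 1 hour later. All mice were male, of strain C57BL/6 (C57BL/6J in the growth protocol), and 12 weeks old. Replicates are labelled as biological, and whether hippocampus and striatum libraries of the same number came from 1 mouse is not stated. Behaviour was assigned by cage, so cage and behaviour cannot be told apart.

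Clustered histone genes are the replication-dependent ones: in most tissues they are transcribed in S phase, lack introns, and give mRNAs that end in a conserved stem-loop in place of a poly(A) tail. Replacement variants are transcribed outside S phase, mostly as polyadenylated mRNAs, and enter chromatin in cells that no longer divide, such as neurons. The libraries were made from polyadenylated RNA, so counts of a clustered gene should come mainly from its polyadenylated transcripts. Stem-loop-ended mRNAs should be largely missing, and whether some were carried along was not tested.

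Totals ran from 26026024 to 36670767 counts per hippocampus library and from 27418127 to 33635025 per striatum library. The labelled tissue matched its markers: in vehicle context mice, 8 markers of dentate granule and CA1 neurons summed to 741 to 871 CPM (counts scaled to the library total) in hippocampus, against 101 to 163 CPM in striatum. In the same mice 9 markers of medium spiny neurons summed to 173 to 180 CPM in hippocampus, against 7460 to 8770 CPM in striatum. Of all libraries, 4 stood apart. In hippocampus, 8 choroid plexus markers summed to 6100 and 5920 CPM in HDACi CFC replicates 2 and 4, against 36.7 and 41.5 CPM in the other two of that group and 39.5 to 84.7 CPM in vehicle CFC. After context these markers summed to 65.0 to 430 CPM in HDACi hippocampi (median 94.4). In vehicle context hippocampi they summed to 34.3 to 139 CPM (median 42.7). No context library was counted as apart, and the part of these markers was not tested. In striatum, the medium spiny neuron markers summed to 5650 CPM in HDACi CFC replicate 2 and to 6190 CPM in vehicle CFC replicate 3, below all other striatum libraries.

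The stem-loop is the sequence feature that sets most clustered genes apart, and a histone mRNA that ends at it should be largely missing from a poly(A) library. In the GENCODE M21 transcripts (mm10 build), a stem-loop (motif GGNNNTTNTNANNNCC with paired arms of 6 bases and a loop of 4, transcript strand only) followed the coding part in 36 of 50 clustered genes and in 1 of 10 replacement genes, H2afx. The same motif was found in 13 of 19271 other protein-coding genes. Of the 14 clustered models without one, several end within a few bases of the stop codon, so they cannot show it. The stem-loops of the clustered genes that were called higher under CI-994 in striatum are shown with those of H2afx and of Hist2h2aa2, each with 5 bases on either side and the stem-loop in capitals, and Hist2h2aa2 is the tested clustered gene whose transcript ends soonest after it.
H2afx, chr9:44335235-44335260, plus strand: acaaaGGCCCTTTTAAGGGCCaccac
Hist1h1c, chr13:23739507-23739532, plus strand: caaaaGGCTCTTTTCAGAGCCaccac
Hist1h1d, chr13:23555782-23555807, plus strand: caaacGGCTCTTTTCAGAGCCaccca
Hist2h4, chr3:96262934-96262959, minus strand: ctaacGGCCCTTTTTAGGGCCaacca
Hist3h2a, chr11:58955167-58955192, plus strand: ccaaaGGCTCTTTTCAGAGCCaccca
Hist2h2aa2, chr3:96239779-96239804, minus strand: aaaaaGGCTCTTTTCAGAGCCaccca
The 16 bases in capitals were the same in Hist1h1c, Hist1h1d, Hist3h2a and Hist2h2aa2, and 20 of the 37 genes with a stem-loop carried this form. What follows the stem-loop differed: the annotated transcript went on for 840 bases in Hist1h1c, 4884 in Hist1h1d, 1257 in Hist2h4, 1643 in Hist3h2a and 822 in H2afx, but for 35 in Hist2h2aa2. Of the 36 clustered genes with a stem-loop, 21 had over 100 annotated bases after it. A poly(A) signal (AATAAA or ATTAAA) stood in the last 40 bases of the longest transcript of 14 of 50 clustered genes (28.0%) and of 8 of 10 replacement genes, against 69.2% of the other protein-coding genes. The longest transcript had 1 exon in 45 of 50 clustered and 4 of 10 replacement genes.

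Promoters were compared in RefSeq windows from 250 bases before to 50 after the start (GRCm38.p6, the mm10 build), which matched 46 clustered and 9 replacement genes. CCAAT on either strand was in 38 of 46 clustered windows (82.6%) and 6 of 9 replacement windows, against 37.4% of all 32851 windows. TATAAA on either strand was in 27 of 46 clustered windows (58.7%) and 1 of 9 replacement windows, against 13.6% of all. The windows of 3 genes that changed under CI-994 are shown with both motifs in capitals, also where they read on the other strand. In these windows the motifs did not overlap each other.
Hist1h1d, chr13:23554782-23555081, plus strand: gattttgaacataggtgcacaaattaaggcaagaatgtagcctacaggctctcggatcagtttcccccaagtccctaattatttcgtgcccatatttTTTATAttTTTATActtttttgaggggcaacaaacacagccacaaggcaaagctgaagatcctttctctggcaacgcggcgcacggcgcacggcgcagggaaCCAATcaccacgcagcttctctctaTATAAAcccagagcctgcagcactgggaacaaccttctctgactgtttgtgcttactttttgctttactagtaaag
H3f3b, chr11:116024455-116024754, minus strand: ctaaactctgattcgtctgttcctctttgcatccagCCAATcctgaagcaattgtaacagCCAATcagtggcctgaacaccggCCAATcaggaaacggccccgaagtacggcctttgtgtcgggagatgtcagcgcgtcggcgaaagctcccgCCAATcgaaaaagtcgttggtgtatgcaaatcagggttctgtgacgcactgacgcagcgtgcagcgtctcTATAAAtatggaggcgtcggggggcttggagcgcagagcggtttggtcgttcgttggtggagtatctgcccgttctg
H2afy2, chr10:61783815-61784114, minus strand: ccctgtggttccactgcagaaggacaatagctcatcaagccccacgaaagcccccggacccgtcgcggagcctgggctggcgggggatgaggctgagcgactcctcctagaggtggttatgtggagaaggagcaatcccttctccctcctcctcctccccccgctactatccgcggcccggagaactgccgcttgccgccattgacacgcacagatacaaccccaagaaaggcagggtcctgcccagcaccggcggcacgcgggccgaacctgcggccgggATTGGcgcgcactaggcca
H3f3b was the replacement gene with TATAAA, and H2afy2 held a single CCAAT, on the other strand near the start. All 3 windows follow the RefSeq start and lie within the GENCODE M21 span of their gene, whose annotated start is further upstream. In Hist1h1d, whose model of 1 exon starts at 23553262, the window falls inside the annotated exon.

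Replacement variants made up most of the histone mRNA measured in both regions. Per transcript length (TPM, counts divided by exonic length and scaled to the same sum in every library), H3f3b averaged 167 ± 13.3 TPM in hippocampus and 134 ± 16.5 in striatum (SD, n = 16 each). H3f3b and H3f3a encode the same protein, H3.3, and H3f3a averaged 92.8 ± 3.12 TPM in hippocampus and 84.2 ± 4.77 in striatum. H1f0, the linker histone H1.0 of non-dividing cells, averaged 133 ± 10.1 TPM in hippocampus and 73.6 ± 13.2 in striatum. The H2A variants lay below these: over all 32 libraries H2afz (H2A.Z.1) averaged 67.3 TPM, H2afv (H2A.Z.2) 42.8, H2afy (macroH2A1) 26.1, H2afj (H2A.J) 15.2, H2afx (H2A.X) 14.9 and H2afy2 (macroH2A2) 13.9. The neighbours H2afj, H2afx and H2afy2 changed order between the regions, with H2afj the highest of these in hippocampus (19.3 ± 2.15 TPM) and the lowest in striatum (11.1 ± 1.28). H1fx, another linker histone, had the lowest level of the replacement genes, 3.87 TPM.

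Counts of the clustered class came from few genes. Hist3h2a, Hist1h1c and Hist1h2bc together held 52.4% of the class's CPM, and with Hist1h2be and Hist2h2be 72.7%. Per transcript length the highest were Hist1h2bc, encoding an H2B, at 40 TPM, the linker histone gene Hist1h1c (H1.2) at 32.9 TPM, and Hist3h2a, encoding an H2A, and Hist3h2ba, encoding an H2B, both at 24.8 TPM. At the other end, 21 of the 50 clustered genes had under 100 counts over all 32 libraries, while each of the 10 replacement genes had a count in every library. Near-identical copies limit these values: in 17 of 50 clustered genes over 50% of the 100-base windows also occur in another gene, as in Hist2h2aa2 (100%), Hist1h2br (85.8%) and Hist2h3c2 (61.6%). Among the replacement genes this held for H2afz (58.8%). Overlaps add to this, since the strand setting of the counting is not given: Hist3h2a shares 708 bases with Trim17 and Hist1h2be 816 bases with Hist1h1e and Gm11398 on its strand.

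**Figure D1:**
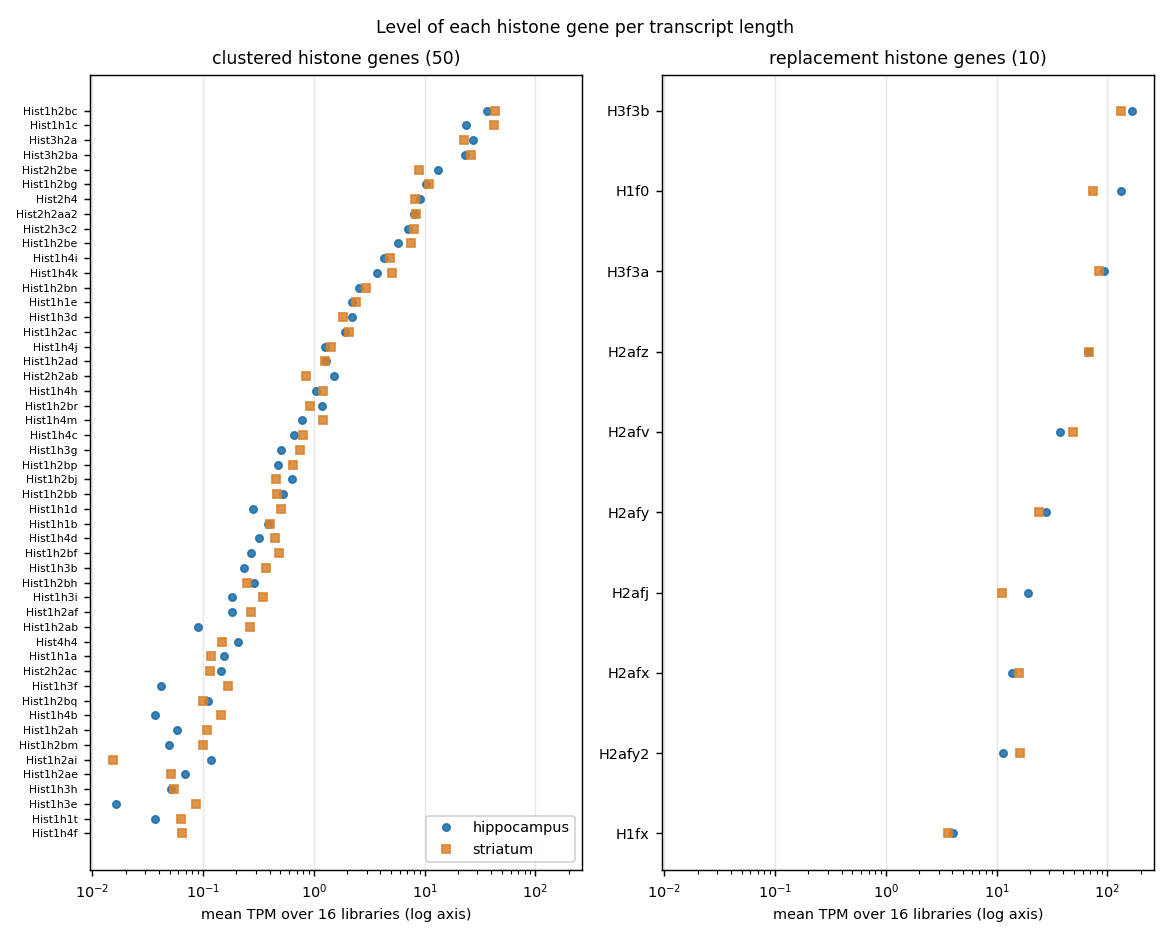
Mean TPM of each of the 60 histone genes over 16 libraries per region, on a log axis, for hippocampus (circles) and striatum (squares), with the 50 clustered genes on the left and the 10 replacement genes on the right. H3f3b is the highest replacement gene (151 TPM over all libraries) and Hist1h2bc the highest clustered gene (40 TPM), and the clustered genes spread down to 0.0325 TPM in Hist1h4f, which was at 0 in hippocampus and has no symbol there.

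Summed over genes, the classes kept similar levels across the treatments of a region. The clustered genes summed to 86.5 ± 8.87 CPM in HDACi CFC hippocampi and 82.7 ± 11.2 CPM in vehicle CFC hippocampi (SD, n = 4 each). After context the sums were 84.1 ± 4.32 CPM in HDACi and 76.9 ± 12.3 CPM in vehicle hippocampi. In striatum they were 102 ± 14.8 CPM in HDACi CFC, 99.6 ± 7.68 in vehicle CFC, 110 ± 1.89 in HDACi context and 97.1 ± 10.1 in vehicle context mice. Of these pairs, the HDACi and vehicle libraries overlapped in hippocampus after both behaviours and in striatum after CFC. After context in striatum the HDACi libraries (108 to 112 CPM) met the vehicle range (84.7 to 108 CPM) at its upper end. That sum covers clustered types that moved apart. Clustered H1 (26.5 to 30.1 against 17.8 to 22.8 CPM) and H2A (22.7 to 26.3 against 16.7 to 19.1 CPM) lay above vehicle without overlap. H4 did so narrowly (7.99 to 10.5 against 4.79 to 7.97 CPM). H2B and H3 overlapped, with lower HDACi means (44.0 against 46.9 and 3.73 against 4.2 CPM). The replacement genes summed to 436 to 507 CPM in hippocampus and 407 to 503 CPM in striatum, with all 4 groups of a region overlapping. The clustered share of the summed CPM was 12.1 to 16.7% in hippocampus and 14.1 to 21.3% in striatum, and both ends of the striatum range lay in the HDACi CFC group. The lowest, 14.1%, was replicate 2, one of the libraries that stood apart.

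**Figure D2:**
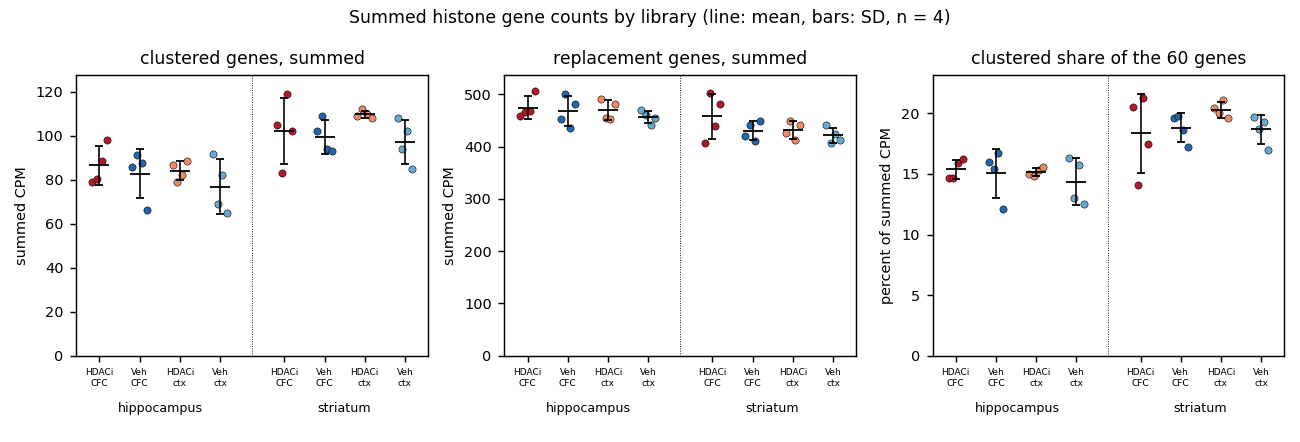
Summed CPM of the 50 clustered genes (left) and the 10 replacement genes (middle) and the clustered percent of both (right), with points for libraries, lines for means and bars for SD (n = 4), by group within hippocampus and striatum (ctx, context). Clustered sums run from 64.9 to 98.2 CPM in hippocampus and from 82.9 to 119 CPM in striatum, and HDACi and vehicle groups largely overlap.

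The regions were first compared at baseline, in vehicle context mice, where 4 of 31 tested histone genes were higher and 7 lower in hippocampus than in striatum. Tests were edgeR quasi-likelihood F tests with Benjamini-Hochberg adjustment over all genes, called at adjusted p under 0.05, and 31 of the 60 genes passed the filter on low counts. Over all 19198 genes tested, 24.2% were called higher and 19.9% lower, so the shares of histone genes lay below and near the background. H1f0 had 77.4, 78.4, 73.5 and 77.1 CPM in hippocampus, against 45.0, 42.0, 44.4 and 45.3 CPM in striatum. It was 1.70-fold higher in hippocampus (log2 difference 0.76, SE 0.088, adjusted p = 2.01e-08), and over all groups the 16 hippocampus libraries (73.5 to 96.3 CPM) lay above the 16 striatum libraries (39.6 to 72.2 CPM). A linker histone gene of the clustered class, Hist1h1c, went the opposite way, with 11, 8.52, 7.48 and 7.08 CPM in hippocampus, against 20.1, 20.2, 19.7 and 16 CPM in striatum. Hist1h1c was 2.27-fold lower in hippocampus (log2 difference −1.18, SE 0.196, adjusted p = 1e-05), with no overlap of the groups. In bulk tissue, fewer cells of a type and less RNA per cell cannot be told apart.

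Among the H2A variants, H2afv had 23.0, 20.3, 20.1 and 18.1 CPM in hippocampus, against 32.5, 25.6, 28.2 and 27.1 CPM in striatum, and was 1.42-fold lower in hippocampus (adjusted p = 1.11e-06). All 16 hippocampus libraries (15.1 to 23.0 CPM) lay below all 16 striatum libraries (23.2 to 32.5 CPM). H2afy2 was 1.56-fold lower in hippocampus (9.39 ± 1.82 against 14.3 ± 1.55 CPM, SD, n = 4 each, adjusted p = 2.52e-04), and H2afz 1.21-fold lower, with overlapping groups. H2afj had 10.9, 8.41, 9.49 and 9.74 CPM in hippocampus, against 8.49, 6.1, 7.67 and 6.93 CPM in striatum, 1.29-fold higher with overlapping groups (adjusted p = 0.00715). H3f3b was 1.14-fold higher in hippocampus (140 ± 6.5 against 120 ± 4.68 CPM, SD, n = 4 each, adjusted p = 0.0264). That call was lost without hippocampus replicate 4 or striatum replicate 1, 2 or 4 (adjusted p up to 0.095), with the 4 libraries that stood apart left out of the fit (adjusted p = 0.0581), with GC content and length offsets (adjusted p = 0.197), with DESeq2 size factors and without the filter on low counts.

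The clustered H2B genes differed in both directions. Hist1h2bc had 16.7, 10.4, 13.0 and 11.2 CPM in hippocampus, against 22.3, 17.4, 17.7 and 15.3 CPM in striatum, 1.44-fold lower with a narrow overlap (adjusted p = 0.00378). Hist1h2be had 9.45, 6.48, 9.17 and 6.82 CPM in hippocampus, against 13.5, 11.8, 14.2 and 9.63 CPM in striatum, 1.57-fold lower with no overlap (adjusted p = 0.00667). Hist2h2be had 11.4, 9.85, 10.1 and 10.4 CPM in hippocampus, against 8.06, 6.17, 9.11 and 7.05 CPM in striatum, 1.35-fold higher with no overlap (adjusted p = 0.00355). Hist1h2ac, encoding an H2A, was 1.35-fold lower in hippocampus (adjusted p = 0.0354), a call lost without hippocampus replicate 2 or 3 or striatum replicate 1, 2 or 3 (adjusted p up to 0.108), and without the filter on low counts. Markers of cell types moved with these regional differences: 6 of 6 oligodendrocyte markers were lower in hippocampus (summed 2910 to 4260 CPM, against 5480 to 7820 CPM in striatum) and 4 of 5 astrocyte markers higher (1370 to 1590 CPM, against 861 to 971 CPM). None of these 11 markers was at 0 in any library, and their part in the histone differences was not tested.

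Under CI-994, 9 histone genes were called in 1 or more of 4 comparisons. H2afx and H2afy2 fell in CI-994 mice in both regions after both behaviours, H3f3b and H1f0 rose in 3 of 4 comparisons, and Hist1h1d and Hist3h2a each rose in 2. In hippocampus after CFC, 0 of 29 tested histone genes rose and 2 fell, where 7.42% of all 18261 genes tested rose and 13.4% fell. After context 3 rose and 2 fell in hippocampus (background 6.55% and 13.2%). In striatum after CFC 3 rose and 3 fell, against 9.57% and 14.6% of 18256 genes, and after context 6 rose and 2 fell, against 10.3% and 14.5%. Called in either direction were 6.9, 17.2, 20.7 and 27.6% of the tested histone genes, in that order. Of all genes 20.8, 19.8, 24.2 and 24.8% were called. Pooled, histone genes were thus not called more often than the background in hippocampus or in striatum after CFC, and little more in striatum after context. The classes differed. Of 19 tested clustered genes 0, 5.26, 10.5 and 21.1% were called, below the background in every comparison. Of 10 replacement genes 20, 40, 40 and 40% were called, near the background in hippocampus after CFC and above it in the others. With so few genes these shares are coarse. Each HDACi group was set against the vehicle group of its own behaviour.

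The direction of calls over all genes moved with the scaling. With library totals in place of TMM, 76.4, 81.0, 76.5 and 78.6% of all called genes were lower in CI-994 mice, in the same order, against 64.3, 66.9, 60.4 and 58.5% with TMM. With offsets for GC content and transcript length the shares were 51.3, 49.3, 52.8 and 49.4%. No histone gene call changed direction under either, but some were lost. Library totals ended all 3 rises in hippocampus after context (H3f3b with an adjusted p of 0.07, Hist3h2a 0.0847 and H1f0 0.214) and the rise of H1f0 in striatum after context (0.129). The GC content and length offsets ended both calls of H2afx in striatum (adjusted p = 0.187 after CFC and 0.218 after context). Without the filter on low counts the same 3 rises in hippocampus and both H2afx calls in striatum were lost too.

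**Figure D3:**
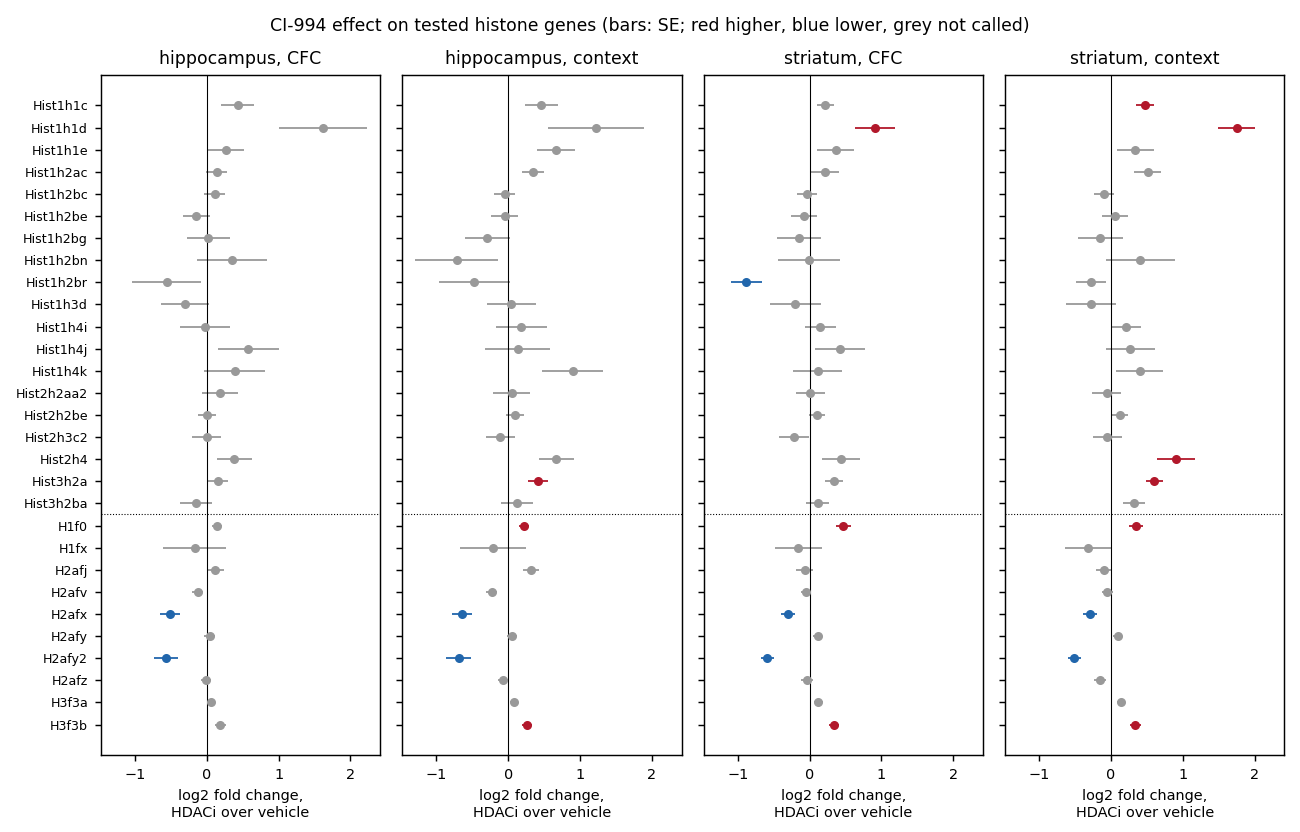
Log2 fold change, HDACi over vehicle, of the 29 tested histone genes in each comparison, with bars for the SE, and with clustered genes above and replacement genes below the dotted line. H2afx and H2afy2 are lower in all 4 panels (blue, log2 fold change −0.29 to −0.69), and Hist1h1d has the largest rise, 1.75, in striatum after context (red, called higher).

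The 2 replacement genes that fell encode H2A variants. H2afx (ENSMUSG00000049932, chr9:44334694-44336077, plus strand; positions are mm10) encodes H2A.X, the variant phosphorylated at DNA breaks, and its gene is known for giving both a stem-loop-ended and a polyadenylated mRNA. In hippocampus after CFC it had 4.95, 4.59, 4.79 and 4.29 CPM in HDACi mice, against 7.9, 8.08, 5.14 and 6.71 CPM in vehicle mice. After context it had 4.11, 4.69, 3.74 and 4.5 CPM in HDACi mice, against 8.57, 6.85, 6.23 and 6.46 CPM in vehicle mice. The HDACi libraries lay below the vehicle libraries in both, by 1.43-fold after CFC (log2 fold change −0.51, SE 0.138, adjusted p = 0.0136) and 1.56-fold after context (−0.64, SE 0.140, adjusted p = 0.00327). In striatum after CFC H2afx had 5.57, 7.22, 7.2 and 6.95 CPM in HDACi mice, against 8.91, 8.61, 7.62 and 10.1 CPM in vehicle mice. After context it had 5.88, 6.69, 6.26 and 5.96 CPM in HDACi mice, against 8.43, 8.56, 8.21 and 7.52 CPM in vehicle mice. Again no library overlapped, and the fitted falls were 1.23-fold (adjusted p = 0.0363) and 1.22-fold (adjusted p = 0.0446). With GC content and length offsets these became 0.187 and 0.218. CPM are relative to library totals, so their ratios differ somewhat from these TMM-scaled folds.

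H2afy2 (ENSMUSG00000020086, chr10:61738665-61784147, minus strand) encodes macroH2A2, a variant with a large non-histone domain that is linked to repressed chromatin. In hippocampus after CFC it had 6.02, 5.91, 5.14 and 6.4 CPM in HDACi mice, against 7.96, 11.3, 7.41 and 9.71 CPM in vehicle mice, with no overlap (1.48-fold lower, adjusted p = 0.0254). After context it had 7.19, 5.8, 4.19 and 4.81 CPM in HDACi mice, against 10.5, 11, 6.93 and 9.12 CPM in vehicle mice, where the highest HDACi library passed the lowest vehicle library (1.62-fold lower, adjusted p = 0.00824). In striatum it had 8.52, 10.8, 8.56 and 9.64 CPM in HDACi CFC, against 15.0, 16.4, 13.9 and 14.4 CPM in vehicle CFC mice. After context the values were 9.61, 9.73, 8.85 and 9.1 CPM in HDACi mice, against 16.2, 15.0, 13.0 and 13.2 CPM in vehicle mice. The striatum groups were well apart, 1.5-fold lower after CFC (adjusted p = 1.45e-04) and 1.42-fold after context (adjusted p = 4.66e-04), and both calls held under every alternative run. Its relative H2afy (macroH2A1) was not called, with 50 to 65.6 CPM over all 16 hippocampus and 50.7 to 62.0 CPM over all 16 striatum libraries. H2afy2 shares 233 bases with Aifm2 on the other strand.

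Both hippocampal calls after CFC were lost without the libraries with choroid plexus markers, a fit that keeps only replicates 1 and 3 of the HDACi CFC group. With all libraries the log2 fold changes were −0.51 for H2afx and −0.57 for H2afy2. Without HDACi CFC replicates 2 and 4, H2afx fell by 0.43 (SE 0.187, adjusted p = 0.164) and H2afy2 by 0.62 (SE 0.236, adjusted p = 0.109) on the log2 scale, so that edgeR called 0 histone genes there, against 2 with them. Of single libraries, HDACi CFC replicate 4 or vehicle CFC replicate 2 ended the call of H2afx when left out, and HDACi CFC replicate 2 or 3 or vehicle CFC replicate 2 or 4 that of H2afy2 (adjusted p up to 0.0584 for H2afx and 0.0985 for H2afy2). In striatum the call of H2afx was lost after CFC without HDACi replicate 1 or 4 or vehicle replicate 1 or 4 (adjusted p up to 0.121), and after context in 6 of 8 such fits (up to 0.11), all but those without HDACi replicate 2 or vehicle replicate 4. Oligodendrocyte precursor markers moved with CI-994 in all comparisons: of 7, none of them at 0, 5, 5, 5 and 4 rose and none fell. Of 5 endothelial markers 2, 1, 3 and 3 rose in the same order. Of all genes 7.42, 6.55, 9.57 and 10.3% rose. Some markers of other cell types were called higher too. Among them were Prox1 and Neurod2 of dentate granule and CA1 neurons in hippocampus after both behaviours. In striatum after both behaviours, the astrocyte markers Slc1a3 and Gja1 and the immature neuron markers Sox11 and Igfbpl1 were called higher. The precursor markers summed to 241 to 317 CPM in HDACi hippocampi, against 174 to 212 CPM in vehicle hippocampi, and to 248 to 329 CPM in HDACi striata, against 173 to 215 CPM in vehicle striata. The part of these cell type markers in the histone gene results was not tested.

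The replacement genes that rose were H3f3b (ENSMUSG00000016559, chr11:116021912-116027962, minus strand) and H1f0 (ENSMUSG00000096210, chr15:79028450-79030504, plus strand). H3f3b had 171, 142, 160 and 163 CPM in HDACi context hippocampi, against 134, 140, 137 and 149 CPM in vehicle context hippocampi, with one HDACi library inside the vehicle range (1.20-fold higher, adjusted p = 0.0135, against 0.07 with library totals as scaling). After CFC in hippocampus it had 150, 156, 153 and 171 CPM in HDACi mice, against 138, 153, 132 and 155 CPM in vehicle mice, which overlapped and was not called (log2 fold change 0.19, adjusted p = 0.068). In striatum it had 129, 173, 140 and 162 CPM in HDACi CFC, against 118, 131, 120 and 134 CPM in vehicle CFC mice, which overlapped (1.27-fold higher, adjusted p = 0.0023). The 2 highest were HDACi replicates 2 and 4, which had the lowest medium spiny neuron marker sums of their group (5650 and 7170 CPM) and the highest immature neuron marker sums (144 and 106 CPM). Without HDACi replicate 2 and vehicle replicate 3 H3f3b was still called (log2 fold change 0.26, adjusted p = 0.0262), and the part of those markers was not tested. After context H3f3b had 140, 139, 135 and 148 CPM in HDACi striata, against 118, 115, 125 and 122 CPM in vehicle striata, with no overlap (1.27-fold higher, adjusted p = 0.00243). H3f3a, the other H3.3 gene, was not called in any of the 4, with log2 fold changes of 0.06 and 0.08 in hippocampus and 0.12 and 0.14 in striatum after CFC and context. Over all groups H3f3a had 92.7 to 104 CPM in hippocampus and 93.2 to 109 CPM in striatum, the narrowest range among the 3 most abundant replacement genes, and it shares 798 bases with H3f3aos and Gm17275 on the other strand.

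H1f0 had 84.2, 82.7, 80.9 and 89.2 CPM in HDACi context hippocampi, against 77.4, 78.4, 73.5 and 77.1 CPM in vehicle context hippocampi, with no overlap (1.16-fold higher, adjusted p = 0.0373). That small rise was lost with library totals as scaling (adjusted p = 0.214) and in 7 of 8 fits that left out a library (adjusted p up to 0.12), all but the one without HDACi context replicate 2. After CFC in hippocampus H1f0 had 78.5, 84.3, 86.6 and 96.3 CPM in HDACi mice, against 74.8, 87.2, 75.0 and 90.3 CPM in vehicle mice, which overlapped and was not called (log2 fold change 0.14, adjusted p = 0.175). In striatum H1f0 had 47.6, 72.2, 53.9 and 69.2 CPM in HDACi CFC, against 39.6, 48.0, 49.0 and 49.3 CPM in vehicle CFC mice, which overlapped (1.38-fold higher, adjusted p = 0.00293). The rise there was mostly in HDACi replicates 2 and 4, which also had the lowest medium spiny neuron marker sums of their group (5650 and 7170 CPM) and the highest sums of neural progenitor and immature neuron markers (144 and 106 CPM, 6 markers, of which 4 of 5 tested rose in this comparison and Eomes was at 0 in some striatum libraries). Without HDACi CFC replicate 2 and vehicle CFC replicate 3 H1f0 was still called (log2 fold change 0.41, adjusted p = 0.0129), and the part of those markers was not tested. After context H1f0 had 52.3, 55.9, 48.4 and 52.0 CPM in HDACi striata, against 45.0, 42.0, 44.4 and 45.3 CPM in vehicle striata, with no overlap (1.28-fold higher, adjusted p = 0.0176). This call was lost without HDACi context replicate 2 or vehicle context replicate 2 (adjusted p up to 0.0701), and with library totals as scaling (log2 fold change 0.24, adjusted p = 0.129).

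The remaining replacement genes, H2afj, H2afv, H2afy, H2afz and H1fx, were not called in any CI-994 comparison with edgeR. In hippocampus after context H2afv had 17.8, 17.2, 15.1 and 15.7 CPM in HDACi mice, against 23.0, 20.3, 20.1 and 18.1 CPM in vehicle mice, and its adjusted p was 0.0511. H2afj had 10.5, 11.9, 11.5 and 11.7 CPM in the same HDACi mice, against 10.9, 8.41, 9.49 and 9.74 CPM in vehicle mice (adjusted p = 0.06). With the replicate number as a block over all 16 hippocampus libraries, both were called, with H2afv lower and H2afj higher. Same-numbered libraries of these 2 groups were correlated, but the block also covered the CFC groups, where HDACi and vehicle libraries were not shown to be paired. The block raised the count in that comparison to 8 genes, 5 higher and 3 lower, against 5 without it.

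**Figure D4:**
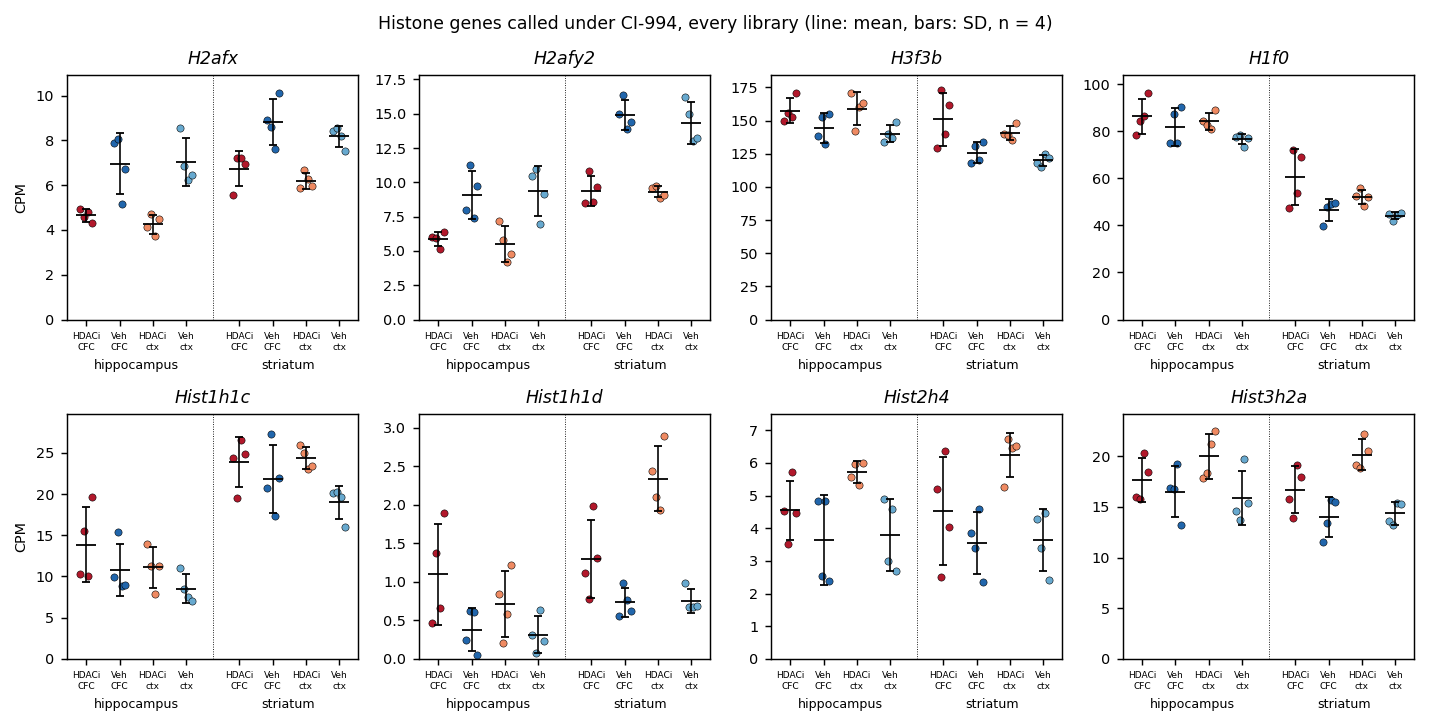
CPM of 8 histone genes in every library, by group within hippocampus (left of the dotted line) and striatum (right), with points for libraries, lines for means and bars for SD (n = 4; ctx, context). H2afx and H2afy2 sit lower in HDACi than in vehicle groups, and Hist1h1d reaches 1.94 to 2.89 CPM in HDACi context striata, above the 0.671 to 0.984 CPM of vehicle context striata.

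Among the clustered genes the largest change was in a linker histone gene. Hist1h1d (ENSMUSG00000052565, chr13:23553262-23560686, plus strand), encoding H1.3, had 2.44, 2.1, 1.94 and 2.89 CPM in HDACi context striata, against 0.984, 0.671, 0.674 and 0.684 CPM in vehicle context striata. It was 3.35-fold higher (log2 fold change 1.75, SE 0.26, adjusted p = 1.14e-04), with no overlap and the call kept under every alternative run. After CFC it had 1.12, 0.775, 1.98 and 1.31 CPM in HDACi striata, against 0.559, 0.985, 0.766 and 0.623 CPM in vehicle striata, 1.88-fold higher with overlapping groups (adjusted p = 0.0224). This call was lost without HDACi CFC replicate 3 or vehicle CFC replicate 1 or 4 (adjusted p up to 0.0919), and with only the 2 groups compared in the fit. In hippocampus Hist1h1d had 0.463, 1.38, 0.667 and 1.89 CPM in HDACi CFC, against 0.242, 0.616, 0.605 and 0.0545 CPM in vehicle CFC mice, and was not called (log2 fold change 1.62, SE 0.617, adjusted p = 0.0763). The 2 high values are HDACi replicates 2 and 4, those with choroid plexus markers, whose part was not tested. After context in hippocampus the values were 0.845, 0.202, 0.579 and 1.22 CPM in HDACi mice, against 0.312, 0.0741, 0.639 and 0.23 CPM in vehicle mice (log2 fold change 1.22, SE 0.671, adjusted p = 0.242). The level is low, 930 counts over all 32 libraries, in a gene model of 7425 exonic bases.

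Hist1h1c (ENSMUSG00000036181, chr13:23738808-23740367, plus strand), the most abundant linker histone gene of the clustered class, had 25.9, 25.0, 23.1 and 23.4 CPM in HDACi context striata, against 20.1, 20.2, 19.7 and 16 CPM in vehicle context striata, with no overlap (1.39-fold higher, adjusted p = 0.0101). After CFC it had 24.4, 19.5, 26.6 and 24.9 CPM in HDACi striata, against 20.7, 27.3, 17.4 and 21.9 CPM in vehicle striata, which overlapped and was not called (log2 fold change 0.22, adjusted p = 0.218). In hippocampus it was not called either, with 10.3, 15.5, 10.1 and 19.6 CPM in HDACi CFC, against 9.9, 15.4, 8.87 and 8.92 CPM in vehicle CFC mice (adjusted p = 0.213). After context the hippocampal values were 13.9, 11.3, 7.93 and 11.3 CPM in HDACi mice, against 11, 8.52, 7.48 and 7.08 CPM in vehicle mice (adjusted p = 0.19). Of 3 tested clustered H1 genes, 2 were thus called higher in striatum after context and 1 after CFC, and none in hippocampus, where at an unadjusted p under 0.05 Hist1h1d passed after CFC and Hist1h1e after context, while DESeq2 called 0 clustered histone genes after CFC and 2 after context, neither of them an H1 gene.

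Of the tested clustered genes for core histones, 3 were called, Hist3h2a, Hist2h4 and Hist1h2br. Hist3h2a (ENSMUSG00000078851, chr11:58954685-58956830, plus strand) had 19.1, 18.9, 22.2 and 20.5 CPM in HDACi context striata, against 13.6, 13.2, 15.4 and 15.3 CPM in vehicle context striata, with no overlap (1.52-fold higher, adjusted p = 0.00136), and this call held under every alternative run. In HDACi context hippocampi it had 17.9, 18.4, 21.2 and 22.5 CPM, against 14.6, 13.7, 19.7 and 15.4 CPM in vehicle context hippocampi, where one vehicle library lay inside the HDACi range (1.33-fold higher, adjusted p = 0.0444). That call was kept in 3 of 8 fits that left out a library, those without HDACi replicate 1 or 2 or vehicle replicate 3 (adjusted p up to 0.136), and it was lost with library totals (0.0847) and with only the 2 groups compared in the fit. After CFC it was not called in striatum (15.8, 13.9, 19.1 and 18 CPM in HDACi, against 11.5, 13.4, 15.7 and 15.5 CPM in vehicle mice, adjusted p = 0.0512). After CFC in hippocampus it had 16, 15.8, 20.3 and 18.5 CPM in HDACi mice, against 16.9, 16.8, 19.2 and 13.2 CPM in vehicle mice, with an adjusted p of 0.477.

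Hist2h4 (ENSMUSG00000091405, chr3:96261682-96263311, minus strand), one of several genes for the same histone H4 protein, had 5.25, 6.73, 6.47 and 6.52 CPM in HDACi context striata, against 4.28, 3.39, 4.46 and 2.41 CPM in vehicle context striata, with no overlap (1.86-fold higher, adjusted p = 0.0193). The call of Hist2h4 was lost without vehicle context replicate 2 or 4 (adjusted p up to 0.0636). In hippocampus after context it had 5.57, 5.97, 5.31 and 6.0 CPM in HDACi mice, against 4.88, 3.0, 4.6 and 2.69 CPM in vehicle mice, also without overlap but not called (log2 fold change 0.67, adjusted p = 0.0673). With the replicate block it was called there. After CFC the groups overlapped in both regions, with 4.52, 3.51, 5.71 and 4.48 CPM in HDACi hippocampi, against 4.84, 2.53, 4.84 and 2.37 CPM in vehicle hippocampi, and 5.19, 2.5, 6.37 and 4.04 CPM in HDACi striata, against 3.84, 3.39, 4.6 and 2.36 CPM in vehicle striata. The clustered gene that fell was Hist1h2br (ENSMUSG00000069303, chr13:21833743-21837530, plus strand), encoding an H2B, with 0.351, 0.564, 0.432 and 0.352 CPM in HDACi CFC striata, against 0.804, 0.985, 0.94 and 0.59 CPM in vehicle CFC striata (1.84-fold lower, adjusted p = 0.00778). The level is low, with 10, 16, 12 and 11 counts against 23, 27, 27 and 18. Its groups did not overlap, but most of its sequence is shared with Hist1h2bq and other H2B genes, so reads may have been split among them. Hist1h2br was not called in the other CI-994 comparisons. Its groups overlapped in hippocampus after CFC (0.434 to 0.979 against 0.327 to 1.94 CPM) and after context (0.383 to 0.768 against 0.558 to 1.37 CPM). In context striata they did not (0.566 to 0.724 against 0.767 to 1.06 CPM). The other 6 tested clustered H2B genes, Hist1h2bc, Hist1h2be and Hist2h2be among them, were not called in any CI-994 comparison.

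The replicate numbers split the libraries into a set of replicates 1 and 2 and a set of replicates 3 and 4. The CI-994 calls kept their direction in both sets in every case, but few passed the test with 2 libraries per group. The calls were made on these same libraries, so the kept direction was largely built in. Neither it nor a pass within a set is independent support. In hippocampus after CFC 1 of 2 calls passed in replicates 1 and 2 and 0 in replicates 3 and 4, and after context 2 and 0 of 5. In striatum 1 and 2 of 6 passed after CFC, and 3 and 3 of 8 after context. H2afy2 passed in both sets of both striatum comparisons, and Hist1h1d and Hist3h2a in both sets after context.

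The clustered genes that rose have over 100 annotated bases past the stem-loop, as do the other tested clustered genes with one except Hist2h2aa2. Hist1h2ac (2010 bases) and Hist1h2be (1861 bases) have more than Hist1h1c (840 bases) and were not called under CI-994. Over the 14 tested clustered genes with a stem-loop, the log2 fold change under CI-994 correlated with the log10 number of bases after it by Pearson's r = 0.432 and 0.657 in hippocampus after CFC and context, and by 0.542 and 0.643 in striatum. Without Hist1h1d, which has the longest, r was 0.0802, 0.527, 0.349 and 0.509 over 13 genes. These are correlations across genes, which share libraries and are not independent replicates, and the comparisons share no control samples but the same 14 genes. A single tested gene, Hist2h2aa2, had at most 100 bases after the stem-loop. By level, the 21 genes with over 100 bases had a median of 2.0 TPM (0.0499 to 32.9) and the 15 with fewer a median of 0.497 TPM (0.0325 to 8.21).

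**Figure D5:**
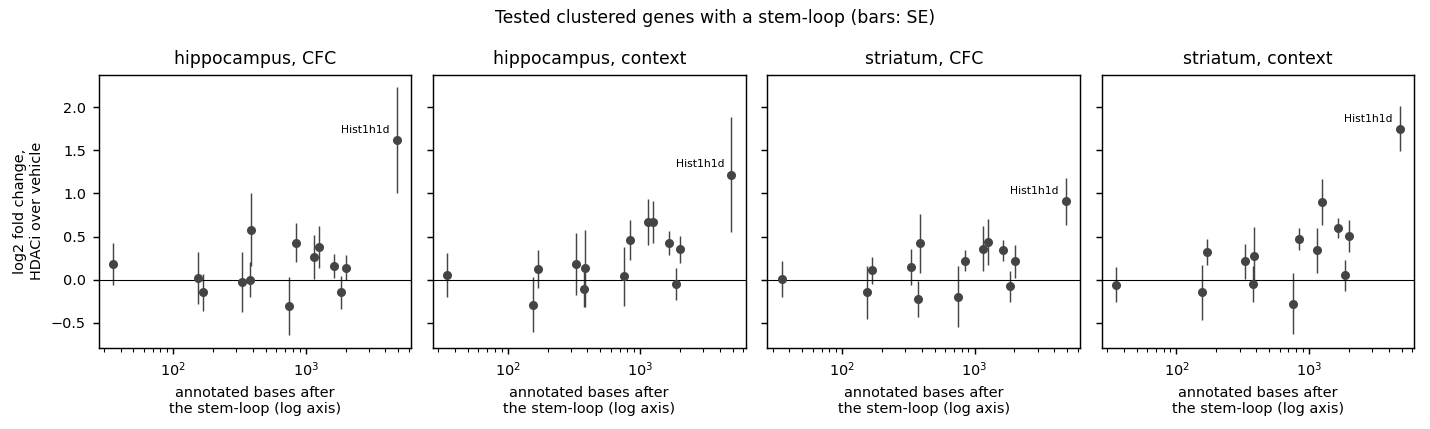
Log2 fold change, HDACi over vehicle, against the annotated number of bases after the stem-loop (log axis) for the 14 tested clustered genes that have one, with bars for the SE, in each comparison. Hist1h1d, at 4884 bases, is the rightmost and highest point of each panel.

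Fear conditioning changed no histone gene past the threshold. Of 29 tested genes, edgeR called 0 in hippocampus under CI-994, 0 under vehicle and 0 for the interaction of drug and conditioning, and likewise 0, 0 and 0 in striatum, where the background was 0% of all genes in each. At an unadjusted p under 0.05 the counts were 1, 1 and 0 in hippocampus and 3, 0 and 1 in striatum, and the DESeq2 Wald test called 0 histone genes in all 6. In striatum under CI-994, Hist1h1d was lower after conditioning, with 1.12, 0.775, 1.98 and 1.31 CPM in HDACi CFC, against 2.44, 2.1, 1.94 and 2.89 CPM in HDACi context mice (log2 fold change −0.89, SE 0.249, adjusted p = 0.839). The groups overlapped narrowly, and the interaction was −0.83 (95% interval from the SE, −1.57 to −0.09, adjusted p = 1). Hist1h2br (−0.67) and Hist3h2a (−0.32) were the other two with an unadjusted p under 0.05 there, in Hist3h2a with a 95% interval of −0.55 to −0.08. H2afx, H2afy2, H3f3b and H1f0 differed between conditioned and context mice by −0.05 to 0.17 on the log2 scale in all 4 comparisons, with 95% intervals within −0.38 to 0.42.

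The CI-994 effects were also compared between the regions, as the effect in hippocampus minus that in striatum. With edgeR 0 of 31 tested histone genes differed after CFC, beside 0.266% of all genes, and 0 after context, beside 0.62%. The DESeq2 Wald test called 0 in both. At an unadjusted p under 0.05 stood H1f0 after CFC (difference −0.32, 95% interval −0.57 to −0.08, adjusted p = 0.41), H2afj after context (0.41, adjusted p = 0.41) and H2afx after context (−0.37, 95% interval −0.70 to −0.04, adjusted p = 0.585). For Hist1h1d after context, called in striatum and not in hippocampus, the difference was −0.55 with a 95% interval of −1.97 to 0.88, which leaves room for equal effects and for large differences.

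Genes that process histone mRNA and carry or exchange histones were called lower more often than higher in CI-994 mice, as were all genes, of which 13.4 and 13.2% fell and 7.42 and 6.55% rose in hippocampus after CFC and context, and 14.6 and 14.5% fell and 9.57 and 10.3% rose in striatum. That direction moved with the scaling. Of 19 genes of histone pre-mRNA 3' end processing, 0 rose in any comparison, 6 fell in hippocampus after CFC and 6 after context, and 6 and 7 fell in striatum. The median log2 fold changes were −0.13 and −0.13 in hippocampus, beside 0.01 for all genes, and −0.24 and −0.19 in striatum, beside 0.03. Npat, the activator of clustered histone gene transcription, averaged 22.1 ± 1.48 CPM in HDACi CFC and 36.7 ± 3.91 CPM in vehicle CFC hippocampi (SD, n = 4 each, adjusted p = 1.94e-04). In context striata Npat averaged 19.2 ± 1.1 CPM with HDACi and 36.0 ± 2.35 CPM with vehicle (SD, n = 4 each, adjusted p = 1.56e-06). Casp8ap2 (FLASH), which binds the histone pre-mRNA cleavage machinery, fell 2.05-fold and 1.97-fold in hippocampus and 2.05-fold and 2.21-fold in striatum after CFC and context. Coil, encoding coilin of Cajal bodies, fell 1.77-fold, 1.72-fold, 1.84-fold and 1.73-fold in the same order. Slbp, the stem-loop binding protein, had 10.6 to 19.7 CPM over the hippocampus and 4.7 to 12.7 CPM over the striatum libraries.

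Of 36 genes of histone chaperones and exchange complexes, 35 of them tested in hippocampus, 1 rose and 12 fell in hippocampus after CFC and likewise after context, and 2 rose and 9 fell, then 1 rose and 10 fell, in striatum. Beside these stand 7.42 and 6.55% of all genes higher and 13.4 and 13.2% lower in hippocampus, and 9.57 and 10.3% higher and 14.6 and 14.5% lower in striatum. Hjurp, known as the chaperone of the centromeric H3 variant, averaged 41.7 ± 2.1 CPM in HDACi CFC and 76.6 ± 2.93 CPM in vehicle CFC hippocampi (SD, n = 4 each, adjusted p = 1.61e-06), and fell 1.70-fold to 1.78-fold in the other three comparisons. Nasp, a chaperone of H3 and H4, fell 1.85-fold and 1.82-fold in hippocampus, and Daxx, an H3.3 chaperone, 1.66-fold and 1.74-fold in striatum. Ubn1, a subunit of the HIRA complex that deposits H3.3, fell 1.35-fold and 1.32-fold in hippocampus and 1.5-fold and 1.49-fold in striatum. Of 5 histone genes outside the naming rule, Cenpa, encoding the centromeric H3, was tested, fell 2.08-fold and 1.66-fold in hippocampus, and was not called in striatum (log2 fold changes −0.41 and −0.35). Of the S phase and proliferation genes, 11 of 21 tested fell in hippocampus after CFC and 10 after context, and 4 and 5 of 22 in striatum, with none higher. All genes fell in 13.4 and 13.2% of cases in hippocampus and in 14.6 and 14.5% in striatum, so the striatum counts lie near the background. Mcm4, a subunit of the replicative helicase, averaged 4.86 ± 0.355 CPM in HDACi CFC and 13.0 ± 0.336 CPM in vehicle CFC hippocampi (SD, n = 4 each, adjusted p = 3.87e-08). Ccne2, cyclin E2, averaged 1.44 ± 0.307 CPM in HDACi context and 5.65 ± 0.461 CPM in vehicle context striata (SD, n = 4 each, adjusted p = 1.54e-06).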

How the data were processed

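Polyadenylated RNA of 32 mouse libraries was sequenced as 100-base read pairs with a stranded kit, per the labels' protocols. The authors deposited a table of raw counts per gene, and the submitters' processing notes name STAR 2.6, bcl2fastq 2.20.0, DESeq2 and mm10. Neither a counter nor how strand was handled is given in these sources. Of 54146 identifiers, 67 had no GENCODE M21 symbol (at most 0.0264% of a library's counts). The genes and lists described were chosen with earlier results of these data known. CPM used library totals, and TPM used exonic length. Genes were tested with edgeR 4.0.16 in R 4.3.3 (filterByExpr, TMM, quasi-likelihood F test, Benjamini-Hochberg over all genes, called at adjusted p under 0.05). The 16 libraries of a region were fitted together, and all 32 for contrasts between regions. Alternatives were DESeq2 1.42.0, other scalings and filters, offsets for GC content and length, a replicate block, a batch term, subsets of replicates and leaving out each library. The statistics were tested on simulated data. Genes given by library were those called in a CI-994 comparison, with the most abundant of each class and those differing between regions. P-values set each group difference against a spread between libraries that was estimated over all groups of the fit. CPM carry counting error that is larger for low genes.

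Pairing of same-numbered HDACi and vehicle libraries was judged by the correlation of their deviations from their group means. Only in hippocampus after context were all of these over 0.1 (0.2 to 0.417), so the blocked result is given there. The rule used these same data, and such correlations do not establish that libraries were paired. The block was fitted over all 16 hippocampus libraries, and between HDACi and vehicle libraries after CFC these correlations were −0.0619 to 0.225. The blocked calls thus rest in part on libraries that did not pass this rule. The labels do not say what a number marks.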

Additional observations from a re-analysis of the deposited data

Results flagged for a closer look

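Of 136 groups of 4 libraries examined, 9 held a library whose gap to the nearest other, divided by the group's range, passed Dixon's 95% critical value. Chance flags about 1 in 20 groups. In HDACi CFC libraries, H2afx in striatum replicate 1 had 5.57 CPM against 6.95 to 7.22 CPM in the others of its group. Hist1h2bc in hippocampus replicate 4 had 15.4 CPM against 12.9 to 13.1 CPM in the others. That hippocampus library is one of those with choroid plexus markers. In vehicle CFC striata, H1f0 in replicate 1 had 39.6 CPM against 48.0 to 49.3 CPM in the others. H2afj in replicate 2 had 6.89 CPM against 7.37 to 7.41 CPM. H2afv in replicate 3, the library with few medium spiny neuron markers, had 25.5 CPM against 28.4 to 28.5 CPM. In vehicle CFC hippocampi, replicate 2 was high in H2afv, with 21 CPM against 18.6 to 19.0 CPM, and in Hist1h1c, with 15.4 CPM against 8.87 to 9.9 CPM. In vehicle context striata, Hist1h1c in replicate 4 had 16 CPM against 19.7 to 20.2 CPM. Hist1h1d in replicate 1 had 0.984 CPM against 0.671 to 0.684 CPM.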

How the results depend on the processing

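All calls of histone genes kept their direction under every alternative run, each of which reused the libraries that gave the calls. Without 1 library, 1 to 3 genes were called in hippocampus after CFC, 3 to 5 after context, 4 to 7 and 5 to 7 in striatum, and 9 to 14 between regions. In hippocampus after CFC, with 2 calls, GC content and length offsets gave 6, the replicate block 4, replicates 1 and 2 alone 1, and replicates 3 and 4 alone or leaving out the libraries that stood apart 0. After context, with 5 calls, the offsets gave 10, the block 8, library totals 3 (0 higher, 3 lower), no filter on low counts 2, replicates 1 and 2 alone 2 and replicates 3 and 4 alone 0. In striatum replicates 1 and 2 alone gave 1 and replicates 3 and 4 alone 2 after CFC, with 6 calls, and 3 and 3 after context, with 8. Between regions, with 11 calls, replicates 3 and 4 alone gave 7, of which 6 were among the 11. With TMM-scaled CPM, HDACi context striata summed to 115 CPM for clustered and 454 CPM for replacement genes, against 110 and 432 CPM in the same mice with library totals. The class sums of all groups given above use library totals, while the tests use TMM. The causes were not tested. Apart from hippocampus after context, same-numbered libraries did not pass the correlation rule for pairing. With the block the counts were 4, 7, 8 and 12 for hippocampus CFC, striatum CFC, striatum context and the regions. Depth limits the clustered genes: 31 of 50 had too few counts to test within a region.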
